A study of Mus musculus with 7 samples.

Results

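Helz2 and 8 other genes of interferon-induced enzymes were examined in tumours of B16F10, a melanoma line from mouse that makes pigment, after its injection into female C57BL/6J mice, the strain it derives from. The set holds 3 helicase or helicase-like genes (Helz2, Znfx1 and Ddx60), 5 genes of the poly(ADP-ribose) polymerase (PARP) family (Parp9, Parp10, Parp11, Parp12 and Parp14), and Dtx3l, whose product is the partner of PARP9. They were picked by name, with their levels in these same libraries already known, and all 9 were found among the 21878 genes of the deposited count table. The Zelnorm group held 4 tumours from mice given the drug by mouth at 1.25 mg/kg every 2 days, and the NC group held 3 tumours labelled as controls, for which no vehicle is named. Zelnorm is tegaserod, which acts as a partial agonist at a serotonin receptor. Both groups carried the same line in the same strain, and the study asked about the immune microenvironment. The libraries are named by their columns, MBZ_9, MBZ_11, MBZ_13 and MBZ_15 for Zelnorm and NC_5, NC_6 and NC_10 for NC. Whether every library is from a different mouse is not stated, so p-values measure only the spread between these samples, which may be technical.

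Interferons are secreted proteins, and those of type I are released by cells on sensing nucleic acids of viruses or of damaged cells. Type I interferons act on target genes mainly through interferon-stimulated response elements (ISRE) in their promoters, whereas interferon gamma acts mainly through gamma-activated sites (GAS). PARP enzymes transfer ADP-ribose onto proteins or nucleic acids. The interferon-induced members of that family mostly attach single ADP-ribose units, and several also carry macrodomains, which bind ADP-ribose. Helicases of this class unwind or remodel RNA and take part in antiviral defence. In a tumour such transcripts can come from the cancer cells as well as from infiltrating cells, and in bulk RNA fewer cells of a type and less RNA per cell cannot be told apart.

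Libraries held 16903598 to 19666598 counts in the Zelnorm group and 18079258 to 19547390 in the NC group. Values are given as CPM, the counts divided by the TMM-adjusted library size and brought to 1 common depth. A count of 3, the floor of detection, corresponded to 0.152 to 0.178 CPM and covers counting error only. All 10 pigment cell genes, the markers of the labelled line, were detected in both groups, and their summed level was 34483 to 36857 CPM in Zelnorm libraries and 31363 to 35534 CPM in NC libraries. Among other cell types, the 15 pan-leukocyte genes summed to 593 to 848 CPM in Zelnorm and 529 to 629 CPM in NC libraries, and the 12 macrophage genes to 490 to 717 CPM and 251 to 508 CPM. The 10 T and NK cell genes summed to 11.4 to 29.3 CPM in Zelnorm and 6.27 to 12.8 CPM in NC libraries. The defining NK gene Ncr1 had 0 to 3 counts in Zelnorm and 0 to 5 in NC libraries, and Siglech, of plasmacytoid dendritic cells, had 1 to 7 counts in Zelnorm and 2 to 3 in NC libraries.

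All 9 genes were higher on average in the Zelnorm tumours, with log2 fold changes between 0.45 (Znfx1) and 1.04 (Ddx60) and a median of 0.63, where the median over all 12997 tested genes was 0.00. Helz2 alone rose by the quasi-likelihood test of edgeR at 0.05 after Benjamini-Hochberg adjustment over all tested genes, a threshold that 0.0308% of tested genes passed upward and 0.00% downward. A log2 fold change above 0 was seen for 50.2% of tested genes. All 9 were higher at 0.05 without adjustment, where 6.94% of tested genes were higher and 3.38% lower. In 8 of the 9 genes every Zelnorm library lay above every NC library, a separation found for 5.33% of tested genes, with 4.27% separated the other way. Because the genes were chosen with this comparison known, these counts and fold changes are a description and support nothing about the set. The call also depended on the tool, since DESeq2 called 6 of the 9 (Helz2, Znfx1, Ddx60, Parp9, Parp11 and Dtx3l), at a threshold that 1.43% of its genes passed upward and 0.292% downward. Several lists of other cell types were also above 0 on average: 15 of 15 pan-leukocyte genes had a log2 fold change above 0 (median 0.71), as did 12 of 12 macrophage genes (0.69), 8 of 8 tested T and NK cell genes (0.99), 8 of 8 fibroblast genes (0.65), 9 of 9 tested skeletal muscle genes (2.93) and 6 of 6 adipocyte genes (0.63). Endothelial genes were not, with 4 of 8 above 0 and a median of -0.01. These medians depended on single libraries. Without NC_10 they were 1.05 for macrophage, 1.12 for fibroblast, 0.23 for endothelial and 1.01 for adipocyte genes. Without MBZ_15 they were 0.41 for fibroblast, 1.69 for muscle, 0.04 for endothelial and 0.94 for adipocyte genes, and without NC_5 they were 0.41, 6.10, -0.15 and 0.36. The part of these cells in the result for the 9 genes was not tested.

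**Figure D1:**
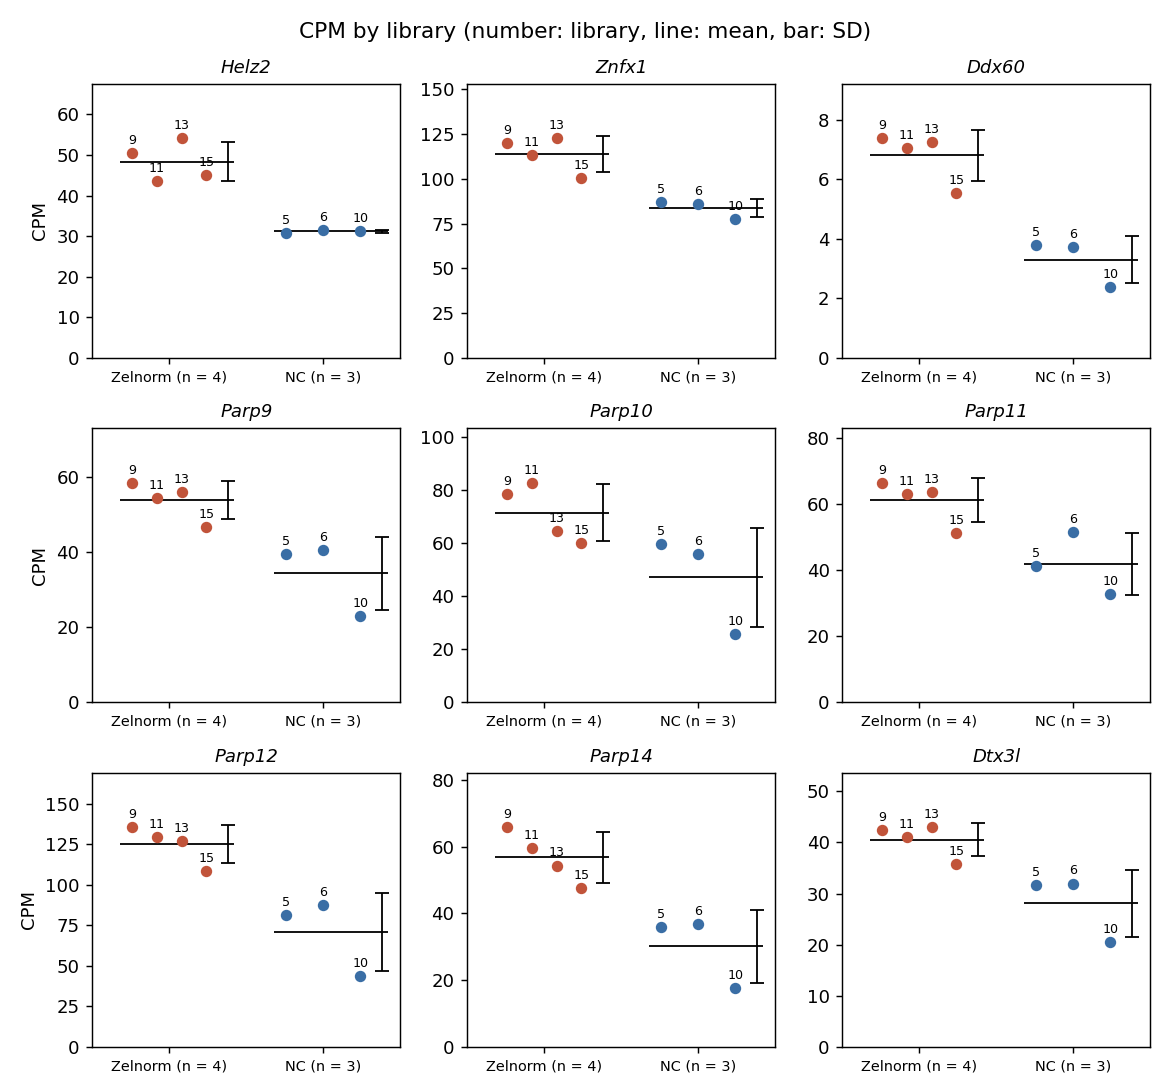
CPM of the 9 genes in each library, Zelnorm on the left of each panel and NC on the right, with the library number above its point, the group mean as a line and the SD as a bar. NC_10 is the lowest library in 8 panels, while the 3 Helz2 values of NC lie between 30.8 and 31.6 CPM.

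Promoter sequences are shown first for the 3 genes whose windows held a match to a motif searched for below. RefSeq windows of 300 bases on GRCm38.p6, from 250 bases before to 50 after the annotated start, were available for 6 of the 9 genes (Helz2, Znfx1, Ddx60, Parp11, Parp12 and Dtx3l). Each was searched on both strands for the ISRE core, which is GAAA, any 2 bases and GAAA, for the same repeat with 1 base between (GAAANGAAA) and for the GAS core TTCNNNGAA. Capitals mark the matches. Positions are counted from the start that the promoter table uses, which lies 14 bases inside the RefSeq gene span of Ddx60, 10 bases inside that of Parp11 and 31 bases inside that of Helz2.
Ddx60: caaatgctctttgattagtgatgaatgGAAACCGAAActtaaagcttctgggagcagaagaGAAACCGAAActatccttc
Parp11: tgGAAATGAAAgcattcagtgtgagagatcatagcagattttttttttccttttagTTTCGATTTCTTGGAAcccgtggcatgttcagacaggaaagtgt
Helz2: cccaggggcaGAAACGAAActgatcgctac
The Ddx60 stretch (chr8:61928007-61928086, plus strand, 80 bases) ends at the base before the table's start (61928087) and holds the ISRE core at -53 and again at -19, the same 10 letters each time. The match at -19 spans the first base of the gene span (61928073). The Parp11 stretch (chr6:127446740-127446839, plus strand, 100 bases) also ends at the base before the table's start (127446840), past the first base of the gene span (127446830). It holds GAAANGAAA at -98, an ISRE core on the opposite strand at -44 and a GAS core at -37, which overlaps the ISRE core by 3 bases. The Helz2 stretch (chr2:181241991-181242020, minus strand, 30 bases) lies past the table's start (181242027) and holds GAAANGAAA at base 18. No match was found in the windows of Znfx1, Parp12 and Dtx3l or at a second annotated start of Parp11, which says only that these letters are not in those windows. The ISRE core was present in 3.44% of all 32851 promoter windows, GAAANGAAA in 3.17% and the GAS core in 8.30%. By gene, 2 of the 6 held the ISRE core, as did 9 of 21 other interferon-stimulated genes with a window and 3.99% of all 27025 genes. A match is a description of letters and not evidence of binding.

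Helz2 (GRCm38 chromosome 2, 181227615 to 181242058, minus strand) encodes a large helicase also known as a coactivator of nuclear receptors of the PPAR family. It had 50.5, 43.6, 54.1 and 45.1 CPM in MBZ_9, MBZ_11, MBZ_13 and MBZ_15, against 30.8, 31.6 and 31.2 CPM in NC_5, NC_6 and NC_10. The lowest Zelnorm library was 1.38 times the highest NC library, and the groups did not overlap. The mean was 48.3 ± 4.84 CPM in Zelnorm (SD, n = 4) and 31.2 ± 0.379 CPM in NC (SD, n = 3), which is 0.63 ± 0.08 on the log2 scale (SE), with an edgeR adjusted p of 0.0467. The NC libraries were unusually close together. Their coefficient of variation (CV) was 1.21%, below the 4.14% that counting error alone gives at these counts, and 2.66% of the 2708 tested genes with an NC mean within 1.5-fold of that of Helz2 had a lower CV. In Zelnorm libraries the CV was 10.01%, against a counting error of 3.40%. With single libraries left out the log2 fold change was 0.57 (without MBZ_13) to 0.67 (without MBZ_11). The call was absent without MBZ_9, MBZ_13, NC_5 or NC_6, with edgeR adjusted p-values of 0.117, 0.0504, 0.144 and 0.104, and adjusted p over all alternatives ran from 3.01e-07 (DESeq2) to 0.227 (without the 3 libraries highest in muscle markers).

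Znfx1 (chromosome 2, 167035790 to 167063015, minus strand) encodes a zinc-finger protein with a helicase domain of the UPF1 type that senses double-stranded RNA. Its levels were 119.9, 113 and 123 CPM in MBZ_9, MBZ_11 and MBZ_13 and 100.3 CPM in MBZ_15, against 86.9, 85.9 and 77.7 CPM in NC_5, NC_6 and NC_10. Its log2 fold change was the smallest of the set, 0.45 ± 0.08 (SE), with means of 114 ± 9.95 CPM in Zelnorm (SD, n = 4) and 83.5 ± 5.05 CPM in NC (SD, n = 3). Every Zelnorm library lay above every NC library by at least 1.15-fold, and without MBZ_15, its lowest Zelnorm library, the gene passed the test (log2 fold change 0.50, edgeR adjusted p = 0.0302), as did 0.148% of tested genes upward in that fit.

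Ddx60 (chromosome 8, 61928073 to 62037704, plus strand) encodes a DExD/H-box helicase that promotes signalling by the RNA sensor RIG-I. It had the fewest counts of the set, with 119 counts in MBZ_11, 109 in MBZ_15, 128 in MBZ_9 and 129 in MBZ_13, against 70, 67 and 47 counts in NC_5, NC_6 and NC_10. In CPM this was 7.36, 7.05, 7.26 and 5.54 in MBZ_9, MBZ_11, MBZ_13 and MBZ_15, against 3.79, 3.73 and 2.38 in NC_5, NC_6 and NC_10. It also had the highest fold change, 1.04 ± 0.21 on the log2 scale (SE), and its groups were separated by 1.46-fold. Counting error is large here, with a CV of 12.8% in NC out of an observed 24.2%. Ddx60 is the gene whose promoter stretch holds the ISRE core at both -53 and -19.

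The locus of Parp9, Dtx3l and Parp14 lies on chromosome 16. Dtx3l (35926515 to 35939027, minus strand), a ubiquitin ligase of the Deltex family, and Parp9 (35938470 to 35972621, plus strand), its macrodomain partner, run in opposite directions and overlap by 558 bases at their starts. Their GENCODE exons share 367 bases, 10.3% of the exon length of Parp9 and 6.41% of that of Dtx3l. The strand setting of the counting is not given in the sources used here, so reads in that stretch cannot be assigned with certainty. Parp14 (35831892 to 35871518, minus strand), a macrodomain PARP known in mice as a coactivator of STAT6, is separated from Dtx3l by 54996 bases that hold 2 annotated pseudogenes.

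Parp9 had 58.3, 54.3, 55.9 and 46.6 CPM in MBZ_9, MBZ_11, MBZ_13 and MBZ_15, against 39.4, 40.4 and 23.1 CPM in NC_5, NC_6 and NC_10. Dtx3l followed it closely. With the libraries listed as for Parp9, it had 42.4, 41.0, 42.9 and 35.9 CPM in Zelnorm and 31.7, 31.97 and 20.5 CPM in NC. MBZ_15 was the lowest Zelnorm library and NC_10 by far the lowest NC library for both, and for neither gene did the groups overlap. Parp14 had 65.8, 59.5, 54.4 and 47.5 CPM in the Zelnorm libraries and 35.9, 36.9 and 17.6 CPM in the NC libraries, again with NC_10 lowest. The log2 fold changes were 0.65 ± 0.17 for Parp9, 0.53 ± 0.14 for Dtx3l and 0.92 ± 0.22 for Parp14 (SE). All 3 depended on NC_10 in size. Without it they were 0.43 for Parp9, 0.35 for Dtx3l and 0.64 for Parp14, and Parp14 then passed the test (edgeR adjusted p = 0.0306) with a smaller fold change and a smaller SE of 0.12. In that fit 1.20% of tested genes passed upward.

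Parp12 (chromosome 6, 39086412 to 39118349, minus strand), a zinc-finger PARP that restricts virus replication, had 135, 129, 127 and 109 CPM in MBZ_9, MBZ_11, MBZ_13 and MBZ_15, against 81.4, 87.5 and 43.5 CPM in NC_5, NC_6 and NC_10. The groups were apart by 1.24-fold, and NC_10 stood at 0.52 times the mean of the other NC libraries. The log2 fold change was 0.82 ± 0.19 (SE), and without NC_10 it was 0.57 ± 0.09 and passed the test (edgeR adjusted p = 0.0246).

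Parp10 (chromosome 15, 76232995 to 76243440, minus strand), a mono-ADP-ribosyltransferase, had the widest spread in NC. Its levels were 78.4, 82.6, 64.4 and 60.1 CPM in MBZ_9, MBZ_11, MBZ_13 and MBZ_15, against 59.7, 56.0 and 25.7 CPM in NC_5, NC_6 and NC_10. The lowest Zelnorm and the highest NC library differed by 1.01-fold only, and the CV within NC was 39.6% against a counting error of 3.39%. The log2 fold change of 0.60 ± 0.24 (SE) was 0.30 ± 0.12 without NC_10.

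Parp11 (chromosome 6, 127446830 to 127514233, plus strand), likewise a mono-ADP-ribosyltransferase, was the one gene of the set whose groups touched. It had 66.3, 63.0, 63.5 and 51.4 CPM in MBZ_9, MBZ_11, MBZ_13 and MBZ_15, against 41.3, 51.4 and 32.7 CPM in NC_5, NC_6 and NC_10. MBZ_15 and NC_6 were level at 51.4 CPM. The log2 fold change was 0.55 ± 0.14 (SE), 0.40 without NC_10 and 0.71 without NC_6.

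**Figure D2:**
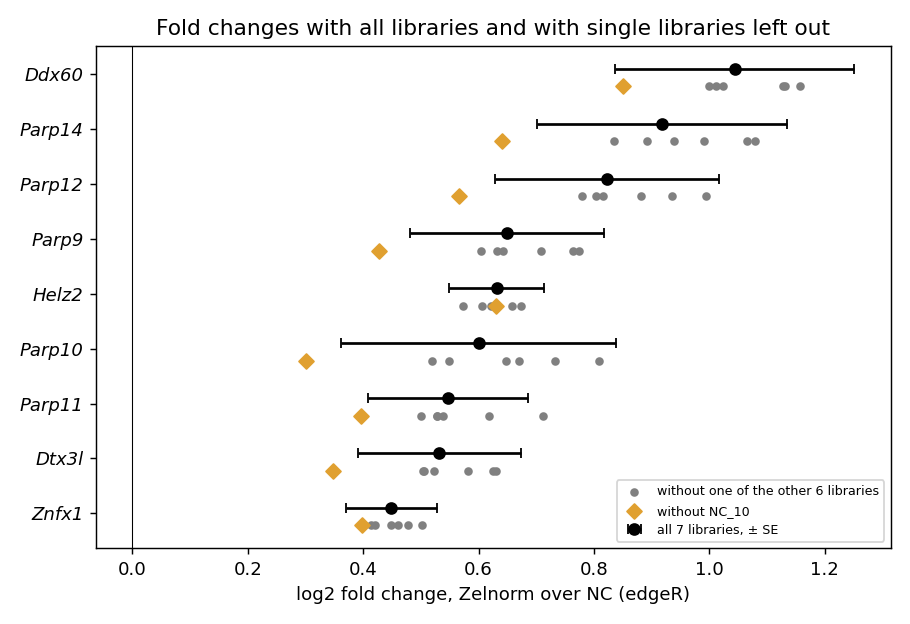
Log2 fold change of Zelnorm over NC (edgeR) for each gene with all 7 libraries (black, bar: SE), without NC_10 (diamond) and without each other library (grey). The diamond lies left of the grey points for 8 genes, at 0.30 for Parp10, and within them for Helz2, at 0.63.

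Compared per length of GENCODE exons, Parp12 was the most abundant transcript of the set in both groups, at 38.7 ± 3.58 CPM per kb in Zelnorm and 21.9 ± 7.37 CPM per kb in NC (SD, n = 4 and 3). Parp10 followed in Zelnorm at 21.1 ± 3.19 CPM per kb, while its 13.9 ± 5.51 CPM per kb in NC was not apart from Znfx1 beyond the spread. Znfx1 had 15.5 ± 1.35 CPM per kb in Zelnorm and 11.4 ± 0.687 CPM per kb in NC. Parp9 was not apart from Znfx1, with 15.2 ± 1.43 CPM per kb in Zelnorm and 9.67 ± 2.75 CPM per kb in NC. Parp11 had 12.3 ± 1.34 CPM per kb in Zelnorm and 8.43 ± 1.89 CPM per kb in NC, within the SD of Parp9 in NC. Parp14 and Dtx3l, at 7.66 ± 1.04 and 7.08 ± 0.565 CPM per kb in Zelnorm, did not differ beyond their spread. Helz2 had a low level per length, 4.71 ± 0.471 CPM per kb in Zelnorm and 3.04 ± 0.0369 CPM per kb in NC, and Ddx60 the lowest, 1.04 ± 0.130 CPM per kb in Zelnorm and 0.504 ± 0.122 CPM per kb in NC. In NC, where the spread was wider, Dtx3l (4.90 ± 1.14 CPM per kb) stood above Parp14 (4.06 ± 1.46 CPM per kb), within their SD.

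Within the groups Helz2 was little correlated with most of the set by Pearson r. For this the mean of a library's own group was taken off its log2 CPM, which removes the difference between Zelnorm and NC. For 7 genes (Ddx60, Parp9, Parp10, Parp11, Parp12, Parp14 and Dtx3l) Pearson r lay between 0.80 and 0.996 over the 21 pairs and 7 libraries. Spearman rho was as low as 0.54 (Parp10 with Parp11). They did not move together in every library: in MBZ_13 the centred level was -0.14 for Parp10 and 0.10 for Ddx60. The closest pair was Parp9 and Dtx3l (r = 0.996), which share exon sequence, and Parp9 with Parp12, on another chromosome, was nearly as close (r = 0.995). By Pearson r Helz2 stood apart, with r between -0.09 (Parp10) and 0.63 (Znfx1) to the other 8. By Spearman rho it was less apart, with values from -0.11 (Parp10) to 0.75 (Znfx1). Its rho of 0.54 with Parp11 equalled the lowest among the 7 genes. The centred levels of Helz2 in NC_5, NC_6 and NC_10 were only -0.018, 0.017 and 0.00, a spread below counting error. The r of Helz2 therefore rests mainly on the Zelnorm libraries. Znfx1 lay between, with r of 0.86 to Ddx60 and 0.60 to Parp10. These r are descriptions over 7 libraries. NC_10 lay farthest from its group mean for the 7 genes, so this 1 library weighs heavily in their r. Its centred level was -0.78 for Parp10, -0.69 for Parp14 and -0.64 for Parp12 and 0.00 for Helz2. The 6 genes with the highest r to Helz2 among 9678 others were BC017158, Casp8, Myo6, Cdk15, Ankhd1 and Mettl3 (r from 0.968 to 0.984), none of them with a log2 fold change above 0.10 in either direction. Among the 6 genes outside the set closest to Parp14, a search added after the values were seen, were Ssbp3 (r = 0.993), Gbp3 (0.991), Gphn (0.989), Tnfaip1 (0.987) and Irgm2 (0.985), of which Gbp3 and Irgm2 encode interferon-inducible GTPases.

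**Figure D3:**
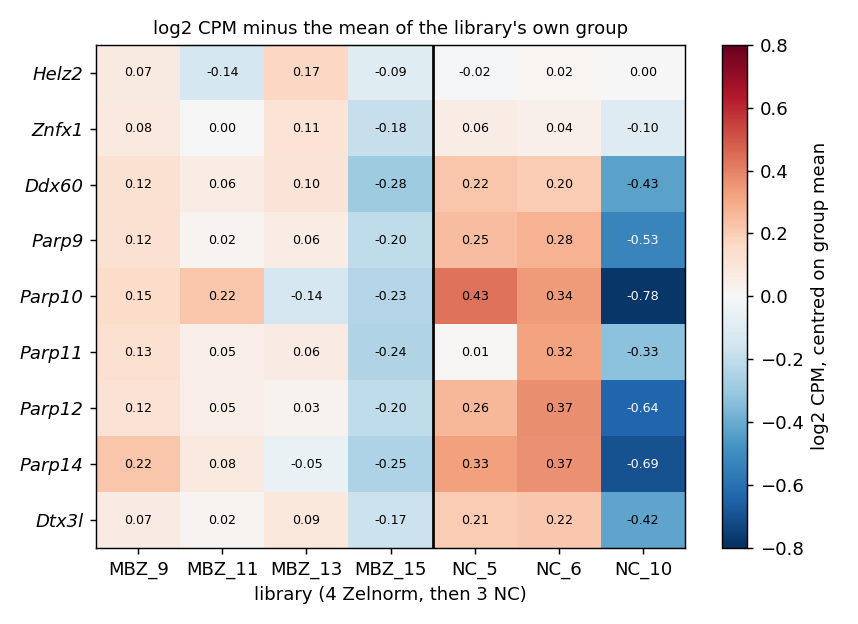
Log2 CPM of each gene (rows) in each library (columns, Zelnorm left and NC right of the line) minus the mean of the library's own group. NC_10 is blue for 8 genes, down to -0.78 for Parp10, and near 0 for Helz2, whereas MBZ_15 is below its group mean for all 9.

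NC_10 was low for most of the set but not for Helz2. Relative to the mean of NC_5 and NC_6, NC_10 had 0.44 of the CPM for Parp10, 0.48 for Parp14, 0.52 for Parp12, 0.58 for Parp9, 0.63 for Ddx60, 0.64 for Dtx3l and 0.71 for Parp11. The ratio was 0.90 for Znfx1 and 1.0 for Helz2. Low values in NC_10 were shared by other interferon-stimulated genes (median ratio 0.65 over 24 genes, lowest 0.36 for Ifit3), while the remaining PARP genes had a median of 0.99 and all 12997 tested genes one of 0.99. Under a limit of 0.7, set after the values were seen, fell 5 of the 8 genes of the set whose mean log2 CPM reached 3, 15 of 22 other interferon-stimulated genes and 1.05% of all 9679 tested genes at that level. Irf7 (0.97) and Oas3 (1.0) also had ratios near 1, but unlike Helz2 they were not level across NC. Irf7 had 16.9, 11.7 and 13.9 CPM and Oas3 4.93, 2.45 and 3.69 CPM in NC_5, NC_6 and NC_10. For both genes NC_10 lay between NC_5 and NC_6. Cell type markers in NC_10 did not move as one. Macrophage genes had a median ratio of 1.76 with all 12 above 1, fibroblast genes 2.38 and endothelial genes 1.56, whereas T and NK cell genes had 0.50 and pigment cell genes 0.91. Ifng, the gene of interferon gamma, had 0 counts in NC_10 and 5 and 2 in NC_5 and NC_6, against 3 to 16 counts in Zelnorm libraries. The part of these cell types in the low values was not tested.

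**Figure D4:**
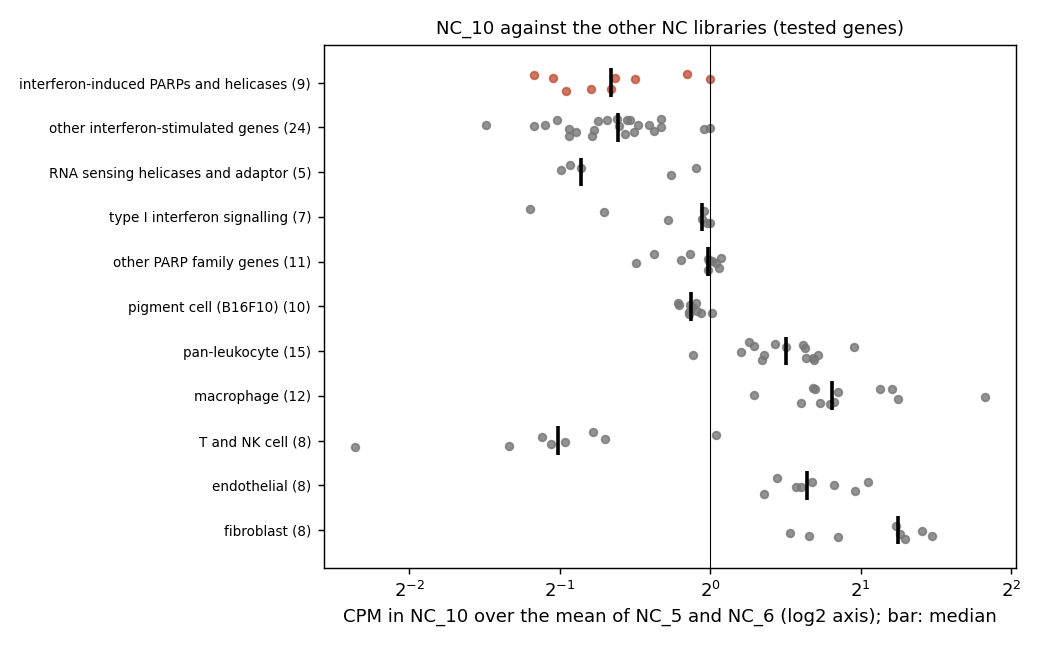
CPM in NC_10 divided by the mean of NC_5 and NC_6 for each tested gene of 11 lists (points; bar: median; number of genes in brackets; log2 axis). Interferon-induced PARPs and helicases, in red, run from 0.44 (Parp10) to 1.0 (Helz2), macrophage genes lie above 1, and 7 of 8 T and NK cell genes lie below 1.

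MBZ_15 was the lowest Zelnorm library for 8 of the 9 genes, Helz2 excepted, where MBZ_11 was lower. Their summed level was 624, 594 and 592 CPM in MBZ_9, MBZ_11 and MBZ_13 and 501 CPM in MBZ_15, against 411, 425 and 274 CPM in NC_5, NC_6 and NC_10. MBZ_15 also had the highest sums of skeletal muscle genes (372 CPM, against 7.03 to 141 CPM in the other Zelnorm and 6.22 to 42.4 CPM in the NC libraries) and of fibroblast genes (2426 CPM, against 1219 to 1497 CPM in the other Zelnorm and 683 to 1783 CPM in the NC libraries). Without the 3 libraries highest in muscle genes (MBZ_15, MBZ_11 and NC_5) all 9 log2 fold changes stayed above 0, with a median of 0.80, and no gene of the set or the table passed the test. With the mean level of the pan-leukocyte genes as a covariate all 9 stayed above 0 as well, the median was 0.88, and none passed (Helz2 0.78 ± 0.12, edgeR adjusted p = 0.0871). That centred log2 level was -0.09 to 0.61 in Zelnorm and -0.56 to -0.03 in NC libraries, so it went largely with the group. With 7 libraries the fit cannot part cell content from treatment. Nor does the covariate stand for T and NK cells. In NC_10 the median ratio to the other NC libraries was 1.42 for pan-leukocyte and 0.50 for T and NK cell genes.

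Other genes of the same families and pathways were taken from lists written with earlier results of these data known. Of the 11 remaining PARP genes, 0 passed the edgeR test in either direction, at a background of 0.0308% upward and 0.00% downward, 2 were higher and 0 lower without adjustment, DESeq2 called 0, and their median log2 fold change was 0.00. Parp3, a PARP of DNA repair, had 44.1, 44.3, 38.6 and 38.04 CPM in MBZ_9, MBZ_11, MBZ_13 and MBZ_15, against 34.7, 35.6 and 24.9 CPM in NC_5, NC_6 and NC_10 (log2 fold change 0.38 ± 0.12, SE). Its groups did not overlap, and without NC_10 the log2 fold change was 0.23. Zc3hav1, the zinc-finger antiviral protein also counted as PARP13, had a log2 fold change of 0.16 ± 0.07 at 132 ± 8.89 CPM in Zelnorm and 118 ± 6.42 CPM in NC. Of 6 tested genes that remove or hydrolyse ADP-ribose, 2 had fold changes above 0 and 0 passed by edgeR, unadjusted edgeR or DESeq2, with Parg at 33.1 ± 3.47 CPM in Zelnorm and 34.7 ± 4.20 CPM in NC. Among the other Deltex ligases 3 were tested, 0 passed by edgeR, unadjusted edgeR or DESeq2, and Dtx3 had 35.8 ± 1.197 CPM in Zelnorm and 38.2 ± 2.99 CPM in NC.

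Of 9 tested helicase genes related to Helz2, Znfx1 or Ddx60, 0 passed the edgeR test, 1 was higher without adjustment, DESeq2 called 1, and the median log2 fold change was 0.01. Mov10, an RNA helicase that is itself induced by interferon, had 93.7, 83.8, 85.6 and 73.2 CPM in MBZ_9, MBZ_11, MBZ_13 and MBZ_15, against 65.9, 66.2 and 47.1 CPM in NC_5, NC_6 and NC_10 (log2 fold change 0.49 ± 0.12, SE). Its groups were apart, with NC_10 lowest. Helz, an RNA helicase named like Helz2, had a log2 fold change of -0.13 ± 0.07 and levels of 63.2 ± 1.95 CPM in Zelnorm and 69.2 ± 5.21 CPM in NC. Every Zelnorm library lay below every NC library, as for 4.27% of tested genes, but MBZ_9 (65.4 CPM) and NC_6 (65.6 CPM) were nearly level. NC_10 was the highest library for Helz, at 75.1 CPM, and without it the log2 fold change was -0.068. Of 7 genes of nuclear receptors and their cofactors, 0 passed by edgeR or DESeq2, 1 was higher without adjustment, and Crebbp, a histone acetyltransferase, had the smallest p (log2 fold change 0.26 ± 0.11, edgeR adjusted p = 0.437).

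The RNA sensing list (5 tested genes) had a median log2 fold change of 0.73, 0 passed the edgeR test, 4 were higher without adjustment and DESeq2 called 1. Ddx58, which encodes RIG-I, had 90.7, 63.2, 98.6 and 67.6 CPM in MBZ_9, MBZ_11, MBZ_13 and MBZ_15, against 55.7, 56.9 and 31.0 CPM in NC_5, NC_6 and NC_10. Trim25, the ubiquitin ligase that acts on RIG-I, had a log2 fold change of 0.73 ± 0.14, and Dhx58 one of 0.94 ± 0.26 (SE). In the type I interferon signalling list, the median log2 fold change was 0.19. Stat2 and Irf9, which encode transcription factors of the pathway, were higher in every Zelnorm than in every NC library, with log2 fold changes of 0.72 ± 0.12 for Stat2 and 0.56 ± 0.17 for Irf9 (SE). Without NC_10 these were 0.63 for Stat2 and 0.35 for Irf9. Of 7 genes in that list and 4 tested genes of interferon gamma signalling, 0 passed the edgeR test, 4 and 1 were higher without adjustment, and DESeq2 called 2 and 0. Irf1, a target of interferon gamma signalling, had 97.0 ± 27.4 CPM in Zelnorm and 60.0 ± 35.8 CPM in NC, and its log2 fold change of 0.69 was 0.26 without NC_10.

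All 24 other interferon-stimulated genes in the table had fold changes above 0, with a median of 0.81, and for 19 the Zelnorm libraries all lay above the NC libraries, against the background of 5.33%. At the adjusted edgeR threshold 0 passed, 23 were higher without adjustment, where 6.94% of tested genes were, and DESeq2 called 16. Those with the smallest p were Oasl2, an oligoadenylate synthetase-like protein (1.18 ± 0.17), Irf7, the transcription factor that amplifies interferon production (1.10 ± 0.16), and Rtp4 (1.21 ± 0.20), with edgeR adjusted p-values of 0.0559, 0.0559 and 0.072. Without NC_10 the median of the list was 0.63 and 4 passed, in a fit where 1.20% of tested genes passed upward, among them 10 of 12 macrophage, 6 of 8 fibroblast and 5 of 15 pan-leukocyte genes. The PARP and helicase set had the same direction with a smaller median, 0.63 with all libraries and 0.43 without NC_10, and the difference between the 2 lists was not tested.

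**Figure D5:**
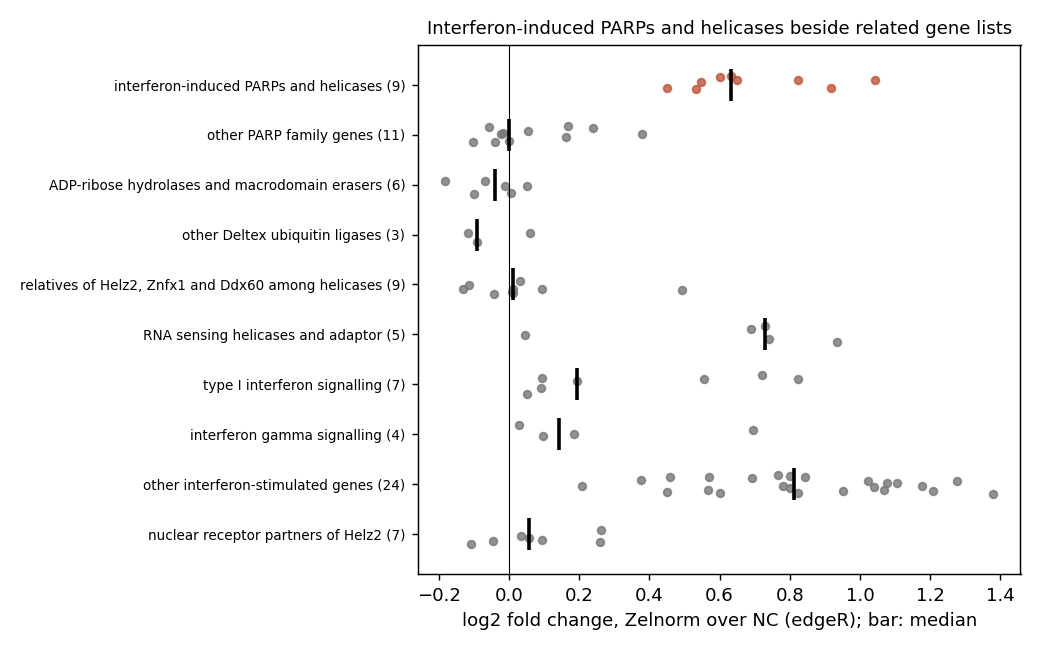
Log2 fold change of Zelnorm over NC for every tested gene of the set (red) and of 9 related lists (grey), with the median as a bar and the number of tested genes in brackets. The set runs from 0.45 to 1.04, other PARP genes from -0.10 to 0.38, and other interferon-stimulated genes from 0.21 to 1.38.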

How the data were processed

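Raw read counts per gene for 7 libraries were deposited by the authors as 1 table. RNA came from TRIzol extracts and the library kit keeps strand, per the labels' protocols. Trimmomatic, HISAT2, Cufflinks, HTSeq and DESeq are named as tools, and GRCh38 and GRCm38 as builds, per the submitters' processing notes, which give no roles or versions here. Columns name a group but no replicate number, so each was assigned to its group only. Gene identifiers restored 27 symbols that the table held as dates.

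Genes kept by filterByExpr (12997) were scaled by TMM and compared with edgeR 4.0.16 (R 4.3.3; quasi-likelihood, Benjamini-Hochberg at 0.05), which was tested on simulated data. SE were derived from the F statistic. Alternatives used limma 3.58.1 (voom), DESeq2 1.42.0, other scalings and filters, left-out libraries and a leukocyte covariate. Exons came from GENCODE M21.

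The 9 genes and all lists were chosen with earlier results of these data known. Named were these 9, genes among the 3 smallest p of each pathway list, and the 6 genes most like Helz2 among those whose mean log2 CPM reached 3. Ifit3, Oas3, Ifng, Ncr1, Siglech and the genes closest to Parp14 were chosen after their values were seen.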

Additional observations from a re-analysis of the deposited data

Results flagged for a closer look

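In the group of 4 Zelnorm libraries, 1 library stood far from the other 3 for 3 values. Dtx3 had 37.6 CPM in MBZ_13, against 35.2, 35.1 and 35.5 CPM in MBZ_9, MBZ_11 and MBZ_15. The summed macrophage genes had 717 CPM in MBZ_11, and the summed keratinocyte genes had 15.99 CPM in MBZ_11. Chance flags about 1 in 20 such groups. The rule was applied to the 9 genes, the named pathway genes and every summed list, so a few flags can arise by chance alone. None of the 9 interferon-induced PARP and helicase genes was flagged, although Ddx60 in MBZ_15 (5.54 CPM) came close to the limit.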

How the results depend on the processing

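All 9 fold changes kept their direction under every alternative run, and their median lay between 0.43 and 0.88. Leaving out single libraries gave 0.43 to 0.76 for that median, 0.57 to 0.67 for Helz2, 0 to 3 of the 9 genes called higher, and 0 to 157 genes called higher and 0 to 4 lower in the whole table. The whole-table counts, 4 higher and 0 lower, were 29 and 5 without a filter on low counts (2 of the 9 called), 171 and 35 with DESeq2 (6 of the 9) and 28 and 4 at an adjusted p under 0.10 (2 of the 9). Limma voom called 0 of the 9, with Helz2 at 0.63. Without the 3 libraries highest in muscle markers and with the leukocyte covariate 0 genes in the table and 0 of the 9 were called, with Helz2 at 0.73 and 0.78. Helz2 was at 0.61, 0.57, 0.62 and 0.63 without MBZ_9, MBZ_13, NC_5 and NC_6, where its call was absent. Signs turned for Dtx2 (-0.019 without the muscle libraries, -0.081 with the covariate), Parg (0.14 with the covariate, -0.15 to 0.015 with single libraries left out, above 0 without NC_6), Ifngr1 (-0.0056 with the covariate) and Dtx4 (-0.33 to 0.031, above 0 without NC_6), none of them called. The cause of these changes was not tested. No paired analysis was possible because the columns carry no replicate numbers. Spearman rho to Helz2 of its 6 most similar genes was 0.857 to 1.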
